A study of Homo sapiens with 3 samples.

Results

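The liver makes most of the plasma proteins that clot blood, dissolve clots and mark microbes for destruction, and 51 genes of these coagulation and complement cascades were examined in Huh7 cells exposed to chlorogenic acid (CA), a plant polyphenol. The genes were chosen by function, as factors, chains, receptors and inhibitors that liver cells make, but with earlier results of these data known. Through the RefSeq accessions of the array's probes, 50 of the 51 genes were found, with 67 of the 34127 gene probes, and these probes named 19736 gene symbols in all. CPB2, the gene of a carboxypeptidase that slows fibrin breakdown, was not found by accession and was not analysed here. Of the 50 genes, 35 had 1 probe, 13 had 2 and 2 (FGA and SERPING1) had 3.

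Huh7 is an established human hepatoma line. The cells were grown in DMEM with fetal calf serum, penicillin and streptomycin, and received no CA (untreated), CA 50 μM or CA 100 μM, with a treatment of 24 h at both doses. The labels give no time or vehicle for the untreated cells, against which the ratios are taken. For its cell experiments, the study states that CA was dissolved in DMSO and that DMSO served as the untreated control. Cy3-labelled RNA was read on one-colour Agilent arrays, with 1 array for each of the 3 groups and no replicate. No test between groups was possible, no p-value is given, and each difference below is one between arrays. The study asked which transcripts CA changed on the way to a more differentiated tumor cell.

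Blood clotting runs as a chain of proteases. Tissue factor with factor VII, or the contact factors, activate factor X, which turns prothrombin into thrombin, and thrombin turns fibrinogen into fibrin. Plasmin, made from plasminogen by activators such as urokinase, dissolves fibrin, and serpins, protein C and its cofactors hold the chain in check. Complement is a related cascade in which the classical, lectin and alternative routes meet at C3 and end in a pore of C5b to C9, while regulators in plasma and on the cell surface protect host cells. In the liver, hepatocytes secrete most of these proteins, and hepatoma lines keep many of them.

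Values are the processed signal of a probe, in intensity units, brought to the 75th percentile of the untreated array and called scaled intensity here. This percentile was 1059 on the untreated array, 1207 at CA 50 μM and 1249 at CA 100 μM. Ratios are log2 ratios of these values, and a gene with several probes is represented by its brightest probe unless another is named. The only error that could be measured was that between the spots of probes printed 10 times, with a median SD of the log2 ratio of 0.065 for CA 50 μM against untreated (814 probes), 0.064 for CA 100 μM against untreated and 0.060 between the doses. This spread covers printing and scanning alone, since no second culture, extract or array of a group was measured. How many of all such probes had spots that did not overlap between arrays was not counted. Where spots of a gene are said below not to overlap, no share over all genes stands beside it. An area of the CA 100 μM array with 2460 gene spots was disturbed, in that dim spots were bright there alone. Among the spots of the coagulation and complement genes it held 1 each of A2M, F2 and C9 and 2 of SERPINC1, and leaving it out moved none of the counts over these genes given below past 1.5 times. As RNA of whole cultures was measured, less RNA per cell and fewer cells with the RNA cannot be told apart.

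The liver identity of the line was checked first. In untreated cells 12 of 14 hepatocyte markers were well above background, and 13 on each treated array, among them albumin (ALB), alpha-fetoprotein (AFP), transthyretin (TTR) and apolipoprotein A1 (APOA1). The exceptions were HNF4A and TF. HNF4A, a transcription factor that defines hepatocytes, read 9.37, 19.1 and 13.1 scaled intensity units at untreated, CA 50 μM and CA 100 μM. Its single named probe was above background at CA 50 μM only, and transcripts of the gene that it does not match would be missed. The spot of TF carried an outlier flag on the untreated and CA 50 μM arrays. Markers of other cells were read as well, with 3 of 5 endothelial, 3 or 4 of 6 macrophage, 4 or 5 of 5 stellate or fibroblast and 3 of 3 leukocyte markers above background on the arrays, while C1QA and C1QB, which macrophages make, were not well above it on any array. The stellate or fibroblast marker above background at CA 100 μM only was COL1A1, at 2.62, 2.87 and 43.8. Its spot lay in the disturbed area, where 22 of the 31 dim spots in the window around it were bright. At CA 50 μM and CA 100 μM, the hepatocyte markers had median log2 ratios of -0.08 at both doses, with 5 and then 3 of 12 above untreated, among them FGB of the group described here. ALB had -0.15 and -0.35, AFP -0.28 and -0.43, and TTR -0.47 at both. Others went the other way, as FOXA2 had 0.06 and 0.18. APOA1 had 0.16 and -0.0038 on its brighter probe and 0.67 and 0.39 on its dimmer one. KRT8 had 0.06 and -0.10 on its brighter probe and 0.70 and 0.43 on its dimmer one. The medians were 0.16 and 0.10 for the 3 endothelial markers, -0.12 and -0.22 for the 3 macrophage ones, 0.04 and 0.10 for the 4 stellate or fibroblast ones, and -0.12 and -0.20 for the 3 leukocyte ones. The summed scaled intensities in the order untreated, CA 50 μM and CA 100 μM were 479498, 438297 and 407447 over 13 hepatocyte markers. Of these sums, ALB gave 109428, 98941 and 85563 and AFP 95490, 78696 and 71019. The sums of the other lists stayed between 397 and 960 on every array. The part of these markers in the results was not tested.

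Most of the cascade was expressed by Huh7 cells. Of the 50 genes, 47 (94%) stood well above background in untreated cells, 47 at CA 50 μM and 48 at CA 100 μM, against 75.8%, 76.3% and 76.4% of all named genes. Between them, the detected genes covered the contact phase, the initiation and common steps of clotting, all 3 fibrinogen chains and the anticoagulant serpins. They also covered plasminogen and urokinase of fibrinolysis, and complement from its first proteases to C8. The genes not well above background in untreated cells were F9, the protease that works with factor VIII, MASP2, a protease of the lectin route, and C9, the last component of the pore. F9 had scaled intensities of 2.89, 2.61 and 2.78 at untreated, CA 50 μM and CA 100 μM. Both MASP2 probes stayed below background on all 3 arrays, at 6.32 to 7.99 and at 2.48 to 2.81.

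C9 was the one gene that passed from background to signal. Its scaled intensity was 5.55 in untreated cells, 4.21 at CA 50 μM and 28.3 at CA 100 μM, which was at least 2.32-fold higher than untreated and at least 2.57-fold higher than CA 50 μM. The spot lay in the disturbed area of the CA 100 μM array, where 10 of the 27 dim spots in the window around it were bright on that array alone. A second PLAU probe behaved alike, at 5.86, 6.46 and 25.2, or at least 2.07-fold above untreated and at least 2.29-fold above CA 50 μM, but in its window 0 of 45 dim spots were bright. The second MASP1 probe was above background at CA 50 μM only, with 9.90, 14.1 and 6.81, a difference of at least 1.15-fold from untreated and at least 1.12-fold from CA 100 μM. Bounds were set against the lowest signal well above background on the dim array, or against the probe's own signal where that was higher.

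At CA 50 μM, the genes as a group lay slightly lower than in untreated cells. Over the 47 genes compared, the median log2 ratio was -0.12, against -0.04 over all 14697 named genes, and 14 genes were above and 33 below their untreated value. The share above was 29.8%, against 43.7% of all genes. No gene differed by 2-fold, a size passed upward by 0.456% and downward by 0.517% of all genes. At 1.5-fold, 1 gene was higher, SERPINF2, where 4.15% of all genes were, and 3 were lower, C8B, F3 and PLAU, where 2.17% of all genes were. The spread of the ratios, an SD of 0.29, was close to the 0.31 of all genes, and 8.51% of the group and 6.32% of all genes passed 1.5-fold in either direction. The medians of clotting and fibrinolysis (26 genes, -0.13) and of complement (21 genes, -0.12) were close. Among all genes, higher ones made up 65.7% of those past 1.5-fold, a share that was 53.6% after centring on the median, 55.3% after quantile normalization and 55.2% in the log2 table of the authors.

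At CA 100 μM, the differences were smaller. The median log2 ratio to untreated was -0.08 over the same number of genes, against -0.03 over all 14637 genes, and 15 genes were above and 32 below untreated, so that 31.9% were above where 42.3% of all genes were. With centring on the median, 10 were above and 37 below. Ratios ran from -0.50 for C8B to 0.26 for SERPINF2, with an SD of 0.15, against 0.25 for all genes. Thus 0 of 47 genes passed 2-fold (0.444% of all genes higher, 0.205% lower) and 0 passed 1.5-fold (1.64% higher, 1.54% lower). Of the genes past 1.5-fold, 51.6% were higher over all genes, against 41.3% after quantile normalization, 41.0% in the authors' table and 34.1% with normexp background correction. With the disturbed areas left out it was 38.8%, since 1.01% in place of 1.64% of all genes were then 1.5-fold higher. The sign at this dose depended on the setting for C3, VTN, C5, F11, FGA, FGB, PROC, C4BPA, PLAUR, SERPIND1 and PROS1. At CA 50 μM it did so for C3, FGB, HRG, PLAUR, SERPIND1 and PROS1. Both doses were set against the same untreated array, so their values are not independent and are given side by side for each gene.

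Set directly against CA 50 μM, the CA 100 μM array was higher for 29 genes and lower for 18, with a median log2 ratio of 0.05 (all 14663 genes, 0.0022). The share above was 61.7%, against 50.5% of all genes. None passed 2-fold, where 0.58% of all genes were higher and 0.0887% lower. PLAU alone was at least 1.5-fold higher (1.39% of all genes), F3 fell just short at 1.49-fold, and none was 1.5-fold lower (1.53%). The lowest ratio was that of VTN, -0.52. Over all genes, higher ones made up 47.6% of those past 1.5-fold, 61.8% after cyclic loess and 32.3% with the disturbed areas left out, when the share of all genes 1.5-fold higher was 0.750% in place of 1.39%.

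**Figure D1:**
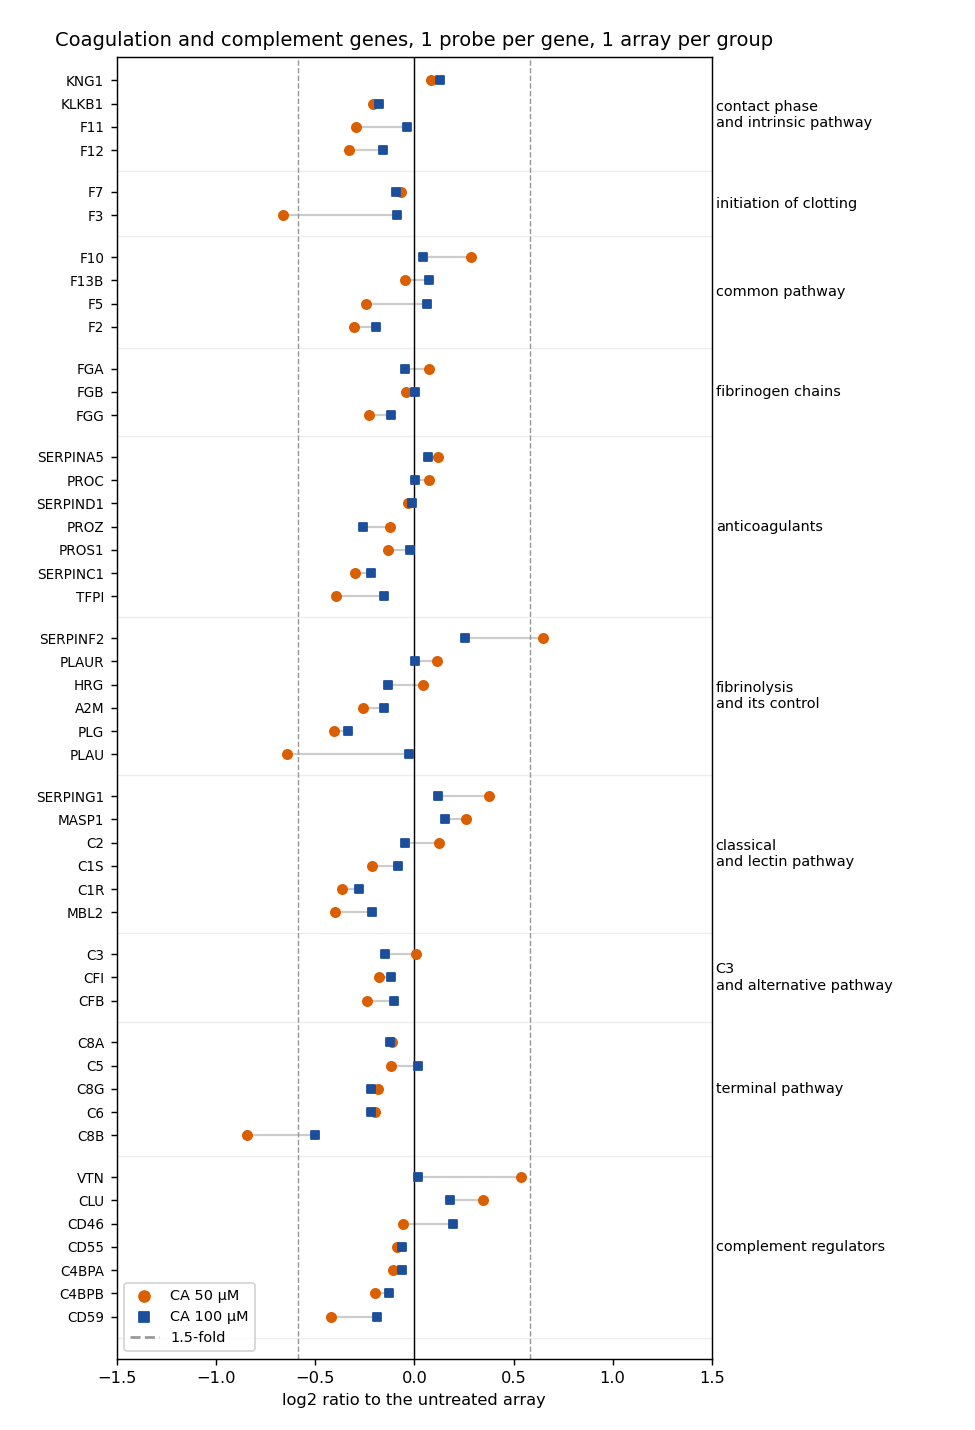
Log2 ratio to the untreated array (x axis) of the 47 coagulation and complement genes measured on all 3 arrays, grouped by role, with circles for CA 50 μM and squares for CA 100 μM (1 probe per gene, 1 array per group, no error available). Dashed lines mark 1.5-fold: SERPINF2 lies above it and C8B, F3 and PLAU below it at CA 50 μM, and every square lies between the lines.

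F3, which encodes tissue factor, the membrane receptor that starts clotting, had one of the largest differences. Its scaled intensity was 1157 in untreated cells, 731 at CA 50 μM and 1091 at CA 100 μM. Tissue factor mRNA was thus 1.58-fold lower than untreated on the CA 50 μM array (log2 ratio -0.66), while CA 100 μM differed from untreated by -0.09. Only 1.53% of all genes had a lower ratio at CA 50 μM. F7, the factor that binds tissue factor, is printed 10 times, and its spots read 2025 to 2148 in untreated cells, 1905 to 2175 at CA 50 μM and 1911 to 2043 at CA 100 μM, so that the arrays overlapped (log2 ratios -0.07 and -0.09).

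**Figure D2:**
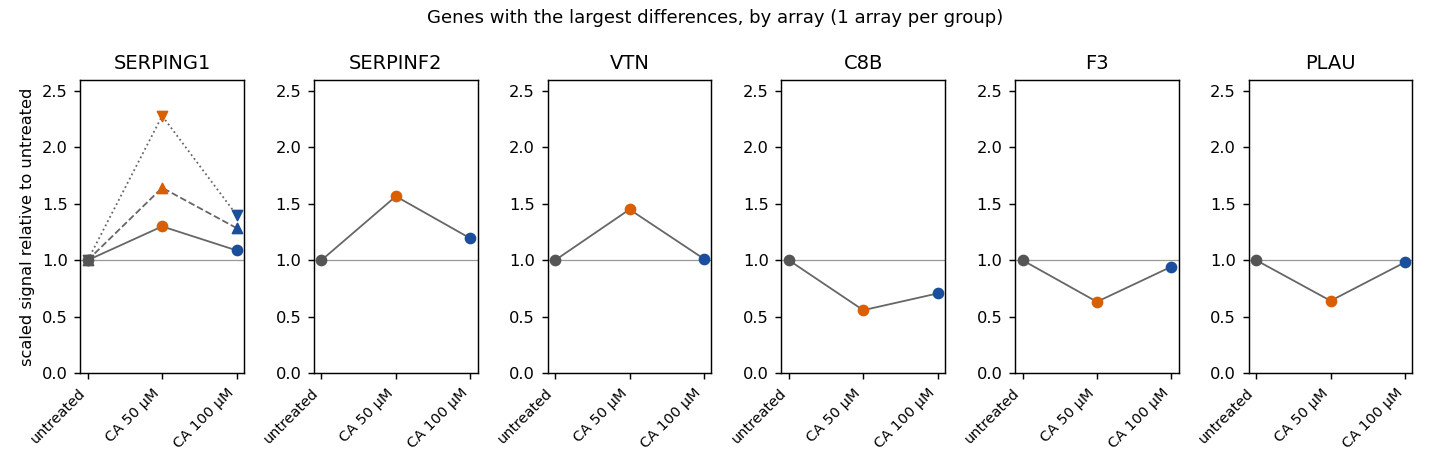
Scaled signal on each array relative to the untreated array (y axis, from 0) for 6 genes, with circles for the brightest probe and, for SERPING1, triangles for its dimmer probes. For each gene the CA 50 μM array lies farthest from untreated, above it for SERPING1, SERPINF2 and VTN and below it for C8B, F3 and PLAU, and there is 1 array per group. The 6 genes were picked for their large differences, so this order is partly set by the choice. CA 100 μM lay between untreated and CA 50 μM for 68.1% of the 47 genes compared and 53.7% of all genes.

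The upstream sequences of the genes with the largest differences are shown here, because F3 and PLAU shared a direction at CA 50 μM and C8B and VTN differed the opposite way from each other. Each is the 250 bases before the RefSeq start in GRCh38.p14, 5′ to 3′ on the strand of the gene, with capitals for matches to 4 short motifs looked for on both strands: TGANTCA of AP-1, which reads alike on both strands, GGGCGG of SP1, TGTTTNC of FOXA and CAAAGTCCA of HNF4. SERPINF2 and SERPING1 have no entry in the table used.
F3, minus strand, chr1:94541760-94542009: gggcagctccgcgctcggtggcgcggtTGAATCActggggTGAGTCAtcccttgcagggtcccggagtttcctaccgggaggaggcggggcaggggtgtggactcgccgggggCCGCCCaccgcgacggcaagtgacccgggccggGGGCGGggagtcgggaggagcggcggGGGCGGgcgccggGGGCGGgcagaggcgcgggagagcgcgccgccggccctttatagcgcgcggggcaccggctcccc
PLAU, plus strand, the downstream one of its entries, chr10:73910882-73911131: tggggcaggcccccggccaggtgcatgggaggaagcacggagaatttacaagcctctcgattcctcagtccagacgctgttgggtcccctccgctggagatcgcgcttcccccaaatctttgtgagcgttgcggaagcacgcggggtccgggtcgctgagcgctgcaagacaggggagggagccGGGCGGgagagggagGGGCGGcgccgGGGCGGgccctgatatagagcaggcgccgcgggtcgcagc
C8B, minus strand, chr1:56966016-56966265: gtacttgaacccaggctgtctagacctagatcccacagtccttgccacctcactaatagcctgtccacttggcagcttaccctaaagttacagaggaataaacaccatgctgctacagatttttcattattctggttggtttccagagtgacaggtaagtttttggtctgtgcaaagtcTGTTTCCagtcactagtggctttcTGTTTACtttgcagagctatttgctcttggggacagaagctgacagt
VTN, minus strand, chr17:28370308-28370557: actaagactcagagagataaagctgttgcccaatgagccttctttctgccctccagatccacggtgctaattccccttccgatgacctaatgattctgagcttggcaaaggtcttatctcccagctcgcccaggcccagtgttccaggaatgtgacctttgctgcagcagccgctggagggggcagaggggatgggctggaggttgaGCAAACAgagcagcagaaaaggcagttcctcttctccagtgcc
F3 held 2 AP-1 and 4 SP1 matches, PLAU 3 SP1 matches, C8B 2 FOXA matches and VTN 1, and no matches overlapped within these sequences. The upstream PLAU entry held none. Over 58 such sequences of 43 of the genes, several of which share a gene, AP-1 letters were found in 3 (5.17%; F3, CD59 and PLAUR), against 6.57% of all 35116 RefSeq entries. SP1 letters were found in 10 (17.2%, against 42.6%), FOXA letters in 14 (24.1%, against 15.5%) and HNF4 letters in 1, upstream of PROZ (1.72%, against 0.325%). A match describes letters in the window and is not a measured binding site.

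The contact phase and intrinsic pathway gave small ratios. F12, the zymogen that starts contact activation, read 2281, 1814 and 2047 at untreated, CA 50 μM and CA 100 μM, with log2 ratios of -0.33 and -0.16. KLKB1, the plasma prekallikrein, had ratios of -0.21 and -0.18, and KNG1, the kininogen that carries it, 0.08 and 0.13. F11, factor XI, was measured by a brighter probe, at 119, 97.3 and 116, and a dimmer one, at 26.1, 19.3 and 31.9. Both F11 probes were lower at CA 50 μM (-0.30 and -0.43), but at CA 100 μM they went opposite ways (-0.04 and 0.29).

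In the common pathway, F2, prothrombin, was printed 10 times and its spots did not overlap between untreated cells (10702 to 11577) and either dose (8533 to 9299 at CA 50 μM, 8621 to 10123 at CA 100 μM). Its log2 ratios were -0.30 and -0.20, with an SD between spots of 0.065 and 0.059. When all genes were split by signal into 5 classes, F2 fell in the top one. The median ratios of that class were themselves below 0, at -0.11 for CA 50 μM and -0.06 for CA 100 μM. Of its genes, 9.32% and 13.1% had a lower ratio than F2 at these doses. The gap between the spots of F2 is thus not shown to be particular to this gene. F10, factor X, stood on the other side, at 1083, 1322 and 1116 (0.29 and 0.04). F5, the cofactor of factor Xa, was at 620, 524 and 648 (-0.24 and 0.06), and F13B, which carries the fibrin-crosslinking enzyme in plasma, had -0.05 and 0.07. F7, F10 and PROZ lie within 200 kb of their nearest neighbour on chromosome 13, and their ratios at CA 50 μM were -0.07, 0.29 and -0.12.

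The 3 fibrinogen chains, encoded side by side on chromosome 4, were close to untreated. FGG read 23818, 20339 and 21920 (-0.23 and -0.12), and FGB 16641, 16180 and 16696 (-0.04 and 0.0047, with a direction at both doses that depended on the setting). The probes of FGA disagreed, as the brightest read 6071, 6379 and 5876 (0.07 and -0.05), the second 2666, 2303 and 2430 (-0.21 and -0.13) and the third 2084, 2345 and 2377 (0.17 and 0.19).

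The natural anticoagulants were mostly level or lower. SERPINC1, antithrombin, the main serpin against thrombin, was printed 10 times. Its spots read 4469 to 5018 in untreated cells, 3562 to 4052 at CA 50 μM and 3765 to 4376 at CA 100 μM, so that neither dose overlapped with untreated (-0.30, SD 0.036 between spots, and -0.22, SD 0.048). SERPINC1 was in the same class of signal as F2, where 10.3% and 10.0% of genes had a lower ratio at CA 50 μM and CA 100 μM. TFPI, the inhibitor of tissue factor and factor VIIa, was lower by both of its probes, at 4977, 3790 and 4480 for the brighter (-0.39 and -0.15) and 3523, 2875 and 3136 for the dimmer (-0.29 and -0.17). PROZ, a cofactor for factor Xa inhibition, had -0.12 and -0.26. PROC, protein C, had 0.07 and 0.0056 on the brighter of its probes, against 0.23 and 0.0079 on the dimmer. Its cofactor PROS1, protein S, went opposite ways by probe, with 21505, 19592 and 21144 on the brighter (-0.13 and -0.02) and 5017, 5083 and 5360 on the dimmer (0.02 and 0.10). SERPIND1, heparin cofactor II, lay at -0.03 and -0.0098, and SERPINA5, the protein C inhibitor, at 0.12 and 0.07.

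**Figure D3:**
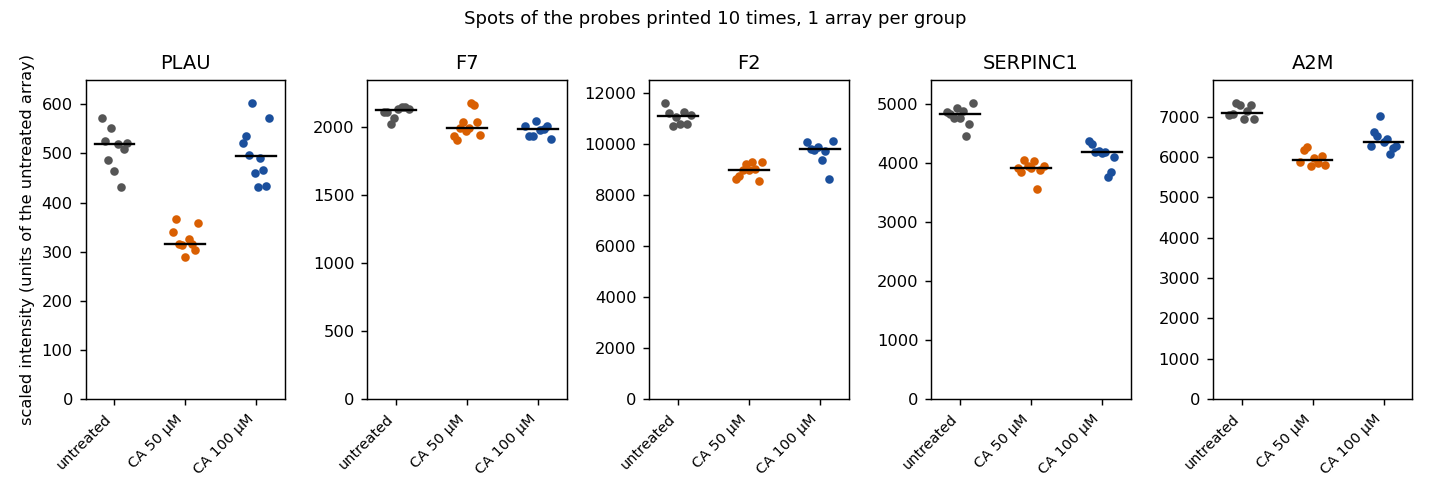
Scaled intensity (y axis, from 0) of each unflagged spot of the 5 genes whose probe is printed 10 times, by array, with a bar at the median. The spots are technical repeats within 1 array per group: CA 50 μM spots lie below all untreated spots for PLAU, F2, SERPINC1 and A2M, and overlap with them for F7. The share of all such probes with spots that do not overlap was not counted.

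Of the roles, fibrinolysis and its control had the widest range of ratios at CA 50 μM, from -0.64 to 0.65. PLAU, urokinase, the protease that turns plasminogen into plasmin, was at 507, 325 and 498 scaled intensity units at untreated, CA 50 μM and CA 100 μM. Its spots spanned 431 to 573 in untreated cells, 290 to 366 at CA 50 μM and 431 to 602 at CA 100 μM, so that the CA 50 μM spots lay below those of both other arrays. PLAU was thus 1.56-fold lower at CA 50 μM (log2 ratio -0.64, SD 0.15 between spots), differed by -0.03 at CA 100 μM, and was 1.53-fold higher at CA 100 μM than at CA 50 μM (0.62, SD 0.053). In the class of signal that holds PLAU, 0.987% of genes had a lower ratio at CA 50 μM. PLAUR, the urokinase receptor, had 0.11 and 0.0045, with a direction that depended on the setting. SERPINF2, the antiplasmin that blocks plasmin, read 69.5, 109 and 82.9, and lay 1.57-fold above untreated at CA 50 μM (0.65), whereas CA 100 μM lay 1.19-fold above it. SERPINF2 was a dim probe of its array, in the second of 5 equal classes of signal, where 9.53% of all genes passed 1.5-fold.

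PLG, plasminogen, was lower at both doses, at 4667, 3521 and 3707 (-0.41 and -0.33). A2M, the broad protease trap of plasma, had spots of 6929 to 7328 in untreated cells, 5766 to 6252 at CA 50 μM and 6067 to 7019 at CA 100 μM, and only the CA 50 μM spots were clear of the untreated ones (-0.26, SD 0.018, and -0.15, SD 0.053). A2M was as bright by class as F2, and 17.3% of genes in that class had a lower ratio at CA 50 μM. HRG, the histidine-rich glycoprotein that binds plasminogen, had 0.04 and -0.13, and its sign at CA 50 μM depended on the setting.

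The classical and lectin routes of complement contained SERPING1, the C1 inhibitor, which also blocks kallikrein and factor XIIa. All 3 of its probes were higher at CA 50 μM than at CA 100 μM and higher at CA 100 μM than in untreated cells. The brightest read 2545, 3307 and 2766 (log2 ratios 0.38 and 0.12), the second 350, 575 and 450 (0.72 and 0.36) and the third 78.7, 179 and 110 (1.19 and 0.49). The largest of these was 2.28-fold at CA 50 μM, and the dimmer the probe, the higher its ratio. This order was common on these arrays, since among genes with several probes the dimmest was above the brightest in 10 of 12 genes of the cascades and in 69.3% of 3266 genes overall at CA 50 μM, with a median difference of 0.13 and 0.15. At CA 100 μM it was 9 of 12 and 70.8% of 3237.

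C1R and C1S, the proteases of the first complement component that SERPING1 blocks, were not higher by their brighter probes. C1R read 199, 154 and 164 on the brighter probe (-0.36 and -0.28), and the ratios of the dimmer one were -0.34 and -0.25. For C1S, the substrate of C1R and its neighbour on chromosome 12, the brighter probe read 777, 670 and 734 (-0.21 and -0.08) and the dimmer 64.2, 66.9 and 58.3 (0.06 and -0.14), which disagreed at CA 50 μM. MBL2, the mannose-binding lectin, was at 1500, 1137 and 1293 (-0.40 and -0.21), and MASP1, a protease bound to it, at 75.8, 90.9 and 84.5 (0.26 and 0.16). C2, the protease of the C3 convertase, had 0.12 and -0.05 by one probe and 0.18 and -0.13 by the other.

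**Figure D4:**
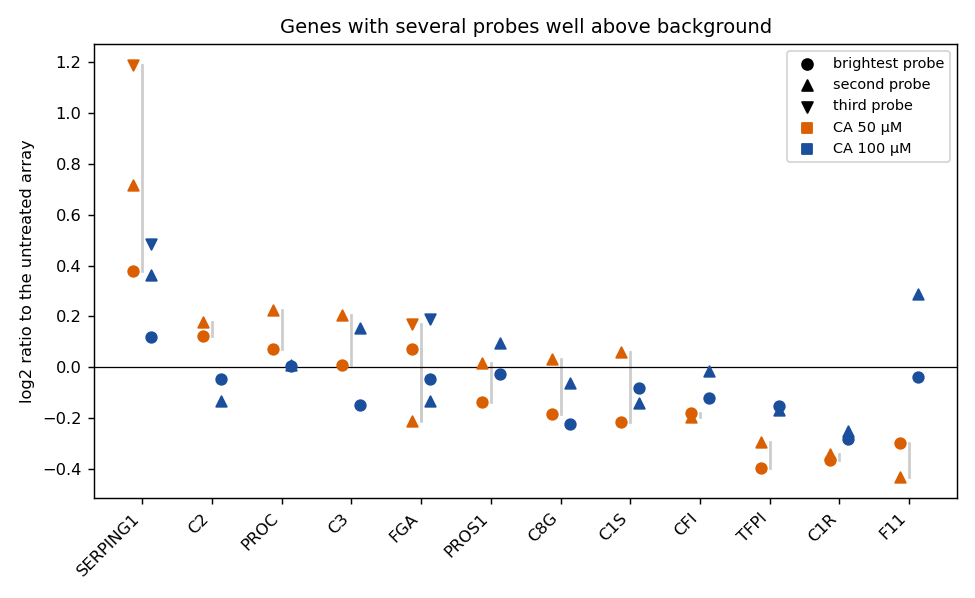
Log2 ratio to the untreated array (y axis) of each probe for the 12 genes with several probes well above background, with 1 marker shape per probe from the brightest to the dimmest and a colour per dose. The probes of SERPING1 run from 0.38 to 1.19 at CA 50 μM, and those of FGA, PROS1, C8G and C1S fall on both sides of 0 at that dose.

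C3, the hub of complement, stayed near its untreated value, at 16082, 16170 and 14514 on the brighter probe (0.0079 and -0.15) and 4748, 5475 and 5290 on the dimmer (0.21 and 0.16). These disagreed at CA 100 μM, where the mean over the probes of C3 was 0.0040. The sign of the brighter probe depended on the setting at CA 50 μM. CFB, factor B of the alternative route, read 870, 739 and 810 (-0.24 and -0.10), next to C2 on chromosome 6, which was higher at CA 50 μM. CFI, the protease that inactivates C3b, had -0.18 and -0.12 on one probe and -0.20 and -0.02 on the other.

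C8B, the beta chain of C8, had the lowest ratio of all the genes. Its scaled intensity was 511 in untreated cells, 285 at CA 50 μM and 360 at CA 100 μM, or 1.80-fold lower (-0.84) and 1.42-fold lower (-0.50). Only 0.830% and 2.19% of all genes lay lower at these doses. C8B had 1 probe with 1 spot. On the CA 100 μM array this spot carried a flag for its background, and spots with that flag were kept. C8A, the chain beside it on chromosome 1, was at 863, 797 and 793 (-0.12 at both doses), and C8G, the third chain, read 161, 141 and 138 on the brighter probe (-0.18 and -0.22), while a dimmer one near background read 15, 15.3 and 14.3 (0.03 and -0.06). The 3 chains of C8 thus had unlike ratios, with no replicate to set against them. C5, which opens the terminal pathway, had -0.12 and 0.02, and C6, the next to bind, -0.20 and -0.22.

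Among the complement regulators, VTN and CLU, secreted proteins that bind the forming pore, were higher at CA 50 μM. VTN, vitronectin, read 12016, 17428 and 12158, which was 1.45-fold higher at CA 50 μM (0.54) and level at CA 100 μM (0.02). For a gene of such signal this was uncommon, as 99.1% of genes in the brightest of 5 classes had a lower ratio and 0.816% of that class passed 1.5-fold in either direction. With quantile normalization, cyclic loess or the authors' table, VTN passed 1.5-fold (0.64, 0.66 and 0.64) while SERPINF2 fell below it (0.57 in each), so that the count of 1 higher gene stayed but the gene was another. CLU, clusterin, was at 7285, 9255 and 8264 (0.35 and 0.18).

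Among the regulators on the cell surface, CD59 had the ratio farthest from 0 at CA 50 μM. CD59, which stops C9 from joining the pore, was at 211, 157 and 185 (-0.42 and -0.19). CD55, which speeds the decay of C3 convertases, had -0.09 and -0.06, and CD46, the cofactor of factor I, -0.06 and 0.19. The chains of the C4b-binding protein, C4BPA and C4BPB, which lie beside CD55 on chromosome 1, had -0.11 and -0.06 for C4BPA and -0.20 and -0.13 for C4BPB.

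The brightness of the probes bears on how these ratios are read. Over all genes, 14.1% of the dimmest class and 0.816% of the brightest passed 1.5-fold at CA 50 μM, and the cascade genes were mostly bright, with 16 of 47 in the brightest class and 3 in the dimmest. In the brightest class the median ratio was -0.13 for the cascade genes and -0.11 for all genes at CA 50 μM, and -0.09 against -0.06 at CA 100 μM. The lower median of the group thus lay near that of equally bright genes in this class. In the third class, which holds C8B, F3 and PLAU, the 8 cascade genes had a median of -0.24 at CA 50 μM, against -0.01 for all genes. In the second class, the 9 cascade genes had -0.18, against 0.03 for all genes, and at CA 100 μM -0.19, against 0.0006. In the fourth class, the 11 cascade genes had -0.03, against -0.05 for all genes, and at CA 100 μM -0.01, against -0.03.

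**Figure D5:**
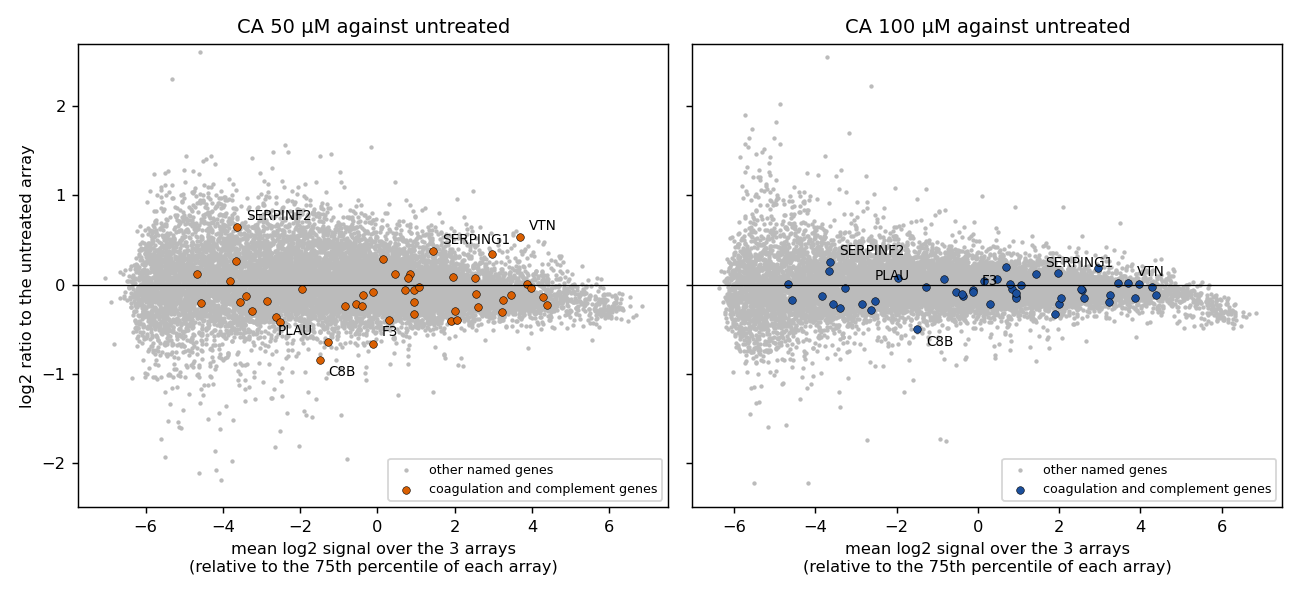
Log2 ratio to the untreated array (y axis) against the mean log2 signal of the 3 arrays (x axis) for all named genes well above background (grey, 14697 in the left panel and 14543 in the right) and the coagulation and complement genes (coloured). VTN lies at the upper edge of the bright genes at CA 50 μM and C8B, F3 and PLAU at the lower edge of theirs, and 1 gene of the right panel lies above the axis.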

How the data were processed

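Total RNA of untreated, CA 50 μM and CA 100 μM Huh7 cells was hybridised by the authors to 1 one-colour array per group, and groups were taken from the treatment in the sample labels. The authors scanned the arrays and analysed the images with Agilent Feature Extraction 11.0.1.1. The deposited files hold intensity values per spot, with the background subtracted and no scaling between arrays, together with flags. A deposited log2 table of the authors, whose method is not given in the sources used here, has the same median in its 3 columns and was used as an alternative only.

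Processed signals were divided by the 75th percentile over the unflagged gene spots of their array and taken to log2. Control spots were left out, as were spots with an outlier flag (429, 569 and 596 of 43118 gene spots). Spots of a probe were averaged, and a probe counted as well above background if 50% or more of them carried that flag. Ratios needed this on both arrays, and a gene was represented by the probe above background on most arrays, then the brightest. Of gene spots, 70.4% (untreated), 71.1% (CA 50 μM) and 70.9% (CA 100 μM) were above background, which with 1 array per group limits the precision.

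Accessions were named through a RefSeq table of GRCh38.p14, which named 25767 of 34127 probes (75.5%). The array design was annotated on GRCh37, so no probe coordinates are given. The genes and lists were chosen with earlier results of these data known. All 51 genes are named, and values on every array are given for those that differed at least 1.5-fold between arrays, were above background on some arrays only, had probes in opposite directions or led their role. An area counted as disturbed where, in a window of 17 rows by 7 columns, at least 5 spots and 25% of dim spots were 4-fold brighter on 1 array. Alternatives were other scalings, normexp (offset 50) background correction, the authors' table, other filters, other probe choices, and spots kept or left out. The steps were tested on simulated data. Python 3.11.15, numpy 2.4.6, pandas 2.3.3, matplotlib 3.10.9, R 4.3.3 and limma 3.58.1 were used.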

Additional observations from a re-analysis of the deposited data

How the results depend on the processing

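Of 173 recomputed group values, 153 stayed within the tolerance (1.5 times for a count, the spread between spots for a median) and 20 moved, with none changing direction. Of 1549 values of single genes, 157 moved by more than that spread, and a sign changed for 25 gene and comparison pairs, whose ratios were at most 0.15 in size. Genes at least 1.5-fold higher at CA 50 μM numbered 1, against 0 with normexp, 2 with the mean over probes (SERPING1 added) and 3 with every probe counted. Those 1.5-fold lower numbered 3, against 1 with normexp (C8B, since F3 and PLAU became -0.58 and -0.57). With every probe counted, 1 passed 2-fold (SERPING1) and 23 of 61 were above untreated. Between the doses, genes 1.5-fold higher at CA 100 μM numbered 1, against 0 with normexp and 2 with quantile normalization, centring on the median, the authors' table, no filter, a filter on 1 array or every probe, and with every probe 1 was 1.5-fold lower (SERPING1). Without a filter, or with it on 1 array, C9 added 1 gene past 1.5-fold and 1 past 2-fold at CA 100 μM against untreated, and 1 past 2-fold against CA 50 μM. Over the alternatives the CA 50 μM ratios ran from -0.90 to -0.61 for C8B, -0.71 to -0.58 for F3, -0.69 to -0.57 for PLAU, 0.39 to 0.65 for SERPINF2, 0.44 to 0.66 for VTN and 0.33 to 0.76 for SERPING1. Over all genes, those 1.5-fold higher and lower at CA 50 μM numbered 610 and 319, against 212 and 132 with normexp and 1413 and 1191 without a filter. At CA 100 μM they numbered 240 and 225, against 30 and 58 with normexp, 1081 and 1204 without a filter and 141 and 222 without disturbed areas. The cause of these shifts was not tested. No paired analysis was possible because each group had 1 array, and for the same reason no replicate could be left out. Depth does not apply to arrays, and probes not well above background gave bounds only.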

Other observations

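Beyond the 51 genes, a wider list of 49 coagulation and complement genes was read, including factors that other cells make, receptors and the enzymes of the vitamin K cycle. Of these, 48 had a probe. Well above background were 28 (untreated), 29 (CA 50 μM) and 30 (CA 100 μM) of them, where 75.8%, 76.3% and 76.4% of all named genes were. Over the 28 compared at CA 50 μM the median log2 ratio was -0.04, as over all genes, with 11 above and 17 below untreated. The share above was 39.3%, against 43.7% of all genes. Of the 28, 10.7% passed 1.5-fold in either direction, against 6.32% of all genes. PROCR, the endothelial receptor of protein C, was the only one past 1.5-fold lower, at 40.7, 21.1 and 24.3 scaled intensity units (-0.95 and -0.74 at CA 50 μM and CA 100 μM). Its probe lay in the dimmest of 5 classes of signal, where 14.1% of all genes passed 1.5-fold at CA 50 μM. ITGAM, the alpha chain of complement receptor 3, was printed 10 times and read 202, 331 and 242 (0.71 and 0.26), and FCN3, a ficolin of the lectin route, had 0.62 and 0.45 on a dim probe. At CA 100 μM the median was again -0.04, against -0.03 over all genes, with 10 above and 18 below. The share above was 35.7%, against 42.3% of all genes. PROCR alone of those compared passed 1.5-fold (3.57%, against 3.18% of all genes). In addition C5AR1 and CD93, receptors with only background signal elsewhere, were at least 2.85-fold and at least 2.29-fold above untreated at CA 100 μM, both on spots in the disturbed area of that array.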
